A study of Mus musculus with 9 samples.

Results

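Collagen and stellate cell genes were read out in mouse liver as 10 genes, chosen by symbol, out of 22701 genes in the table. They are the collagen genes Col1a1, Col1a2, Col3a1 and Col12a1, the matrix and crosslinking genes Bgn and Lox, the ligand gene Tgfb1, the cytoskeletal genes Vim and Acta2, and the lectin gene Colec11. All 10 were found once and passed the filter on low values (a mean of at least 10). The RNA came from whole livers of 9 mice aged 5 weeks on a C57BL/6 and 129svPas background. By their labels, HP1ag_KO (3 livers) lacked HP1α (HP1a-/-) and had HP1γ deleted in the liver (HP1gliver-/-). HP1ab_KO (1 liver) lacked HP1α and had HP1β deleted in the liver (HP1bliver-/-). HP1a_KO (2 livers) lacked HP1α alone, and WT (3 livers) was wild type. The 6 mutant livers thus share the loss of HP1α, and the promoter that drove the liver deletions is not given in the sources used here. HP1 proteins bind methylated histone tails and are known for keeping heterochromatin compact, and the comparisons ask how these genes differ when HP1 proteins are missing.

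Hepatic stellate cells lie between hepatocytes and the sinusoidal endothelium, store vitamin A, and are the main collagen-producing cells of the injured liver. When TGF-β acts on them they become myofibroblasts, which express Acta2, secrete type I and type III collagen and crosslink it. Portal fibroblasts, mesothelial cells and vascular smooth muscle express some of the same genes. In whole liver, fewer cells of a type and less RNA per cell cannot be told apart.

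Values are normalised read counts, which are read counts divided by the size factor of the library. They are given for replicates 1, 2 and 3 in that order where a group has 3 livers, and group values are means ± SD. HP1ab_KO has a single library, so its differences have no replicate check. HP1a_KO replicate 1 was the shallowest library, with 16266423 reads, and the other 8 ranged between 26375545 and 36161177. Cbx5, which encodes HP1α, had 501 to 813 in the 6 mutant livers and 997 to 1542 in the 3 WT livers. Cbx3, which encodes HP1γ, had 326 to 380.0 in HP1ag_KO and 536 to 641 in WT. Cbx1, which encodes HP1β, had 217 in HP1ab_KO, 457 and 771 in HP1a_KO, 690 to 856 in HP1ag_KO and 803 to 1082 in WT. Both HP1a_KO livers were thus below every WT liver for Cbx1, although their labels name the loss of HP1α only. The part of this in the HP1a_KO results was not tested. Whether the deletions remove all reads of these genes is not stated in the labels. The 21 stellate identity genes, such as Lrat, Reln and Des, were each above 0 in every library, and their summed level was 19982 to 21202 in HP1ag_KO, 21735 in HP1ab_KO, 21791 to 24002 in HP1a_KO and 19687 to 20303 in WT. Gfap, a stellate marker of rodents, was under the filter. The labels do not say whether livers of a group came from separate litters, so the p-values measure the spread between these samples. Both HP1a_KO livers carry neighbouring animal numbers, and the labels do not say whether they are related.

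The 10 genes differed widely in level. Per kilobase of exon, the mean normalised read count in WT was highest for Colec11 (513) and Col3a1 (359), followed by Bgn (162), Vim (101), Col1a2 (78.9) and Col1a1 (66.8). Tgfb1 (22.9), Acta2 (19.1), Col12a1 (10.3) and Lox (6.05) were lowest. In WT, the library ranges of Colec11 and Col3a1 overlapped, as did those of Col1a2 and Col1a1, of Tgfb1 and Acta2, of Acta2 and Col12a1, and of Col12a1 and Lox. Other neighbours in that order did not overlap. In HP1a_KO, Col3a1 (602 ± 55.6 per kilobase) stood above Colec11 (546 ± 29.4), although these ranges overlapped as well. HP1a_KO also had Col1a1 (186 ± 37.2 per kilobase) above Col1a2 (146 ± 16.4), with no overlap between the library ranges. The HP1ab_KO liver had the same order, at 128 for Col1a1 and 110 for Col1a2. This order depends on the exon lengths used, 6563 bases for Col1a1 and 12426 for Col1a2.

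Sequence upstream of the start is shown for Col3a1, Bgn and Tgfb1, because HP1a_KO livers had more reads from each and because their 250-base windows hold no exon of their own gene in the annotation. The sequences are from RefSeq (GRCm38.p6), all on the plus strand, 5′ to 3′. The window of Col3a1 is chr1:45311288-45311537, that of Bgn is chrX:73483351-73483600 and that of Tgfb1 is chr7:25686752-25687001. Capitals mark a TATA box (TATAAA) or a GC box (GGGCGG, or CCGCCC on the other strand).
Col3a1: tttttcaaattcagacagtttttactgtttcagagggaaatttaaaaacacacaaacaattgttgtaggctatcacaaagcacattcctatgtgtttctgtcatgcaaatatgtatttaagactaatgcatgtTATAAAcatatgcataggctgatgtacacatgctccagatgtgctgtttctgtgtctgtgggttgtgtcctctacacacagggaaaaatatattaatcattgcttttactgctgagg
Bgn: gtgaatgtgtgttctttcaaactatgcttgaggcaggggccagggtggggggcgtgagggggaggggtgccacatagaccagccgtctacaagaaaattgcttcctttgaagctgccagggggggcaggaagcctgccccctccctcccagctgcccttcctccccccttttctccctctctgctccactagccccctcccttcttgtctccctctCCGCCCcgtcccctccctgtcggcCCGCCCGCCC
Tgfb1: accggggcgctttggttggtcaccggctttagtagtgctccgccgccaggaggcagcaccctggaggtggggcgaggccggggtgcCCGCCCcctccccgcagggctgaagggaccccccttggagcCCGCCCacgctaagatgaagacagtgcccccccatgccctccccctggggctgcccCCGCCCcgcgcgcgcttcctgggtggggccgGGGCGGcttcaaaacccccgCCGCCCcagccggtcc
Both strands were searched for these motifs, for the CCAAT box (CCAAT) and for the CArG box, a serum response element. Col3a1 has the letters of a TATA box 117 bases upstream, a motif found in 12.4% of 32851 such windows. Bgn has 3 GC boxes, of which the pair nearest the start overlap, and Tgfb1 has 5, where 32.7% of all windows hold at least 1. The G and C content is 35.2% for Col3a1, 64.4% for Bgn and 75.2% for Tgfb1. No CCAAT box or CArG box occurs in these 3 windows, against 33.8% and 1.47% of all windows. The matches describe the letters only. Col1a1, Col12a1 and Lox were not in the promoter table.

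In HP1a_KO livers, most of these genes had more reads than in WT livers: 9 of 10 had a log2 difference above 0, as had 49.7% of all genes. Without WT replicate 1 it was 7 of 10. The 10 genes and the wider lists were chosen with earlier results of these data known. Their counts beside the shares of all genes, here and below, are therefore a description and not a test. Col1a1, Col1a2, Col3a1, Vim, Bgn and Tgfb1 were higher in both HP1a_KO livers than in any WT liver, which is 6 of 10 genes, where 14.7% of all genes were so placed. All of these but Vim were also higher in both HP1a_KO livers than in each of the other 7 livers, which is 5 of 10 genes, against 6.3% of all genes. The test, limma on log2(value + 1) adjusted over 13845 genes, called 0 genes of any kind here, and edgeR also called 0. At an unadjusted p under 0.05 limma had 6 of the 10 genes higher, against 5.48% of all genes. DESeq2 on the recovered reads called Col1a1, Col1a2 and Tgfb1 higher, which is 3 of 10, against 0.463% of all genes. None of these 3 calls held without HP1a_KO replicate 1, the shallowest library, when 4 genes of the whole table were called. In HP1a_KO replicate 2 alone the same 6 genes were above every WT liver, where 24.2% of all genes were. The share of reads from mitochondrial genes was 4.30 to 5.27% in HP1ag_KO, 4.65% in HP1ab_KO, 3.83 and 4.20% in HP1a_KO, and 4.57 to 5.51% in WT, so both HP1a_KO livers had the lowest shares. Its part in these results was not tested.

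**Figure D1:**
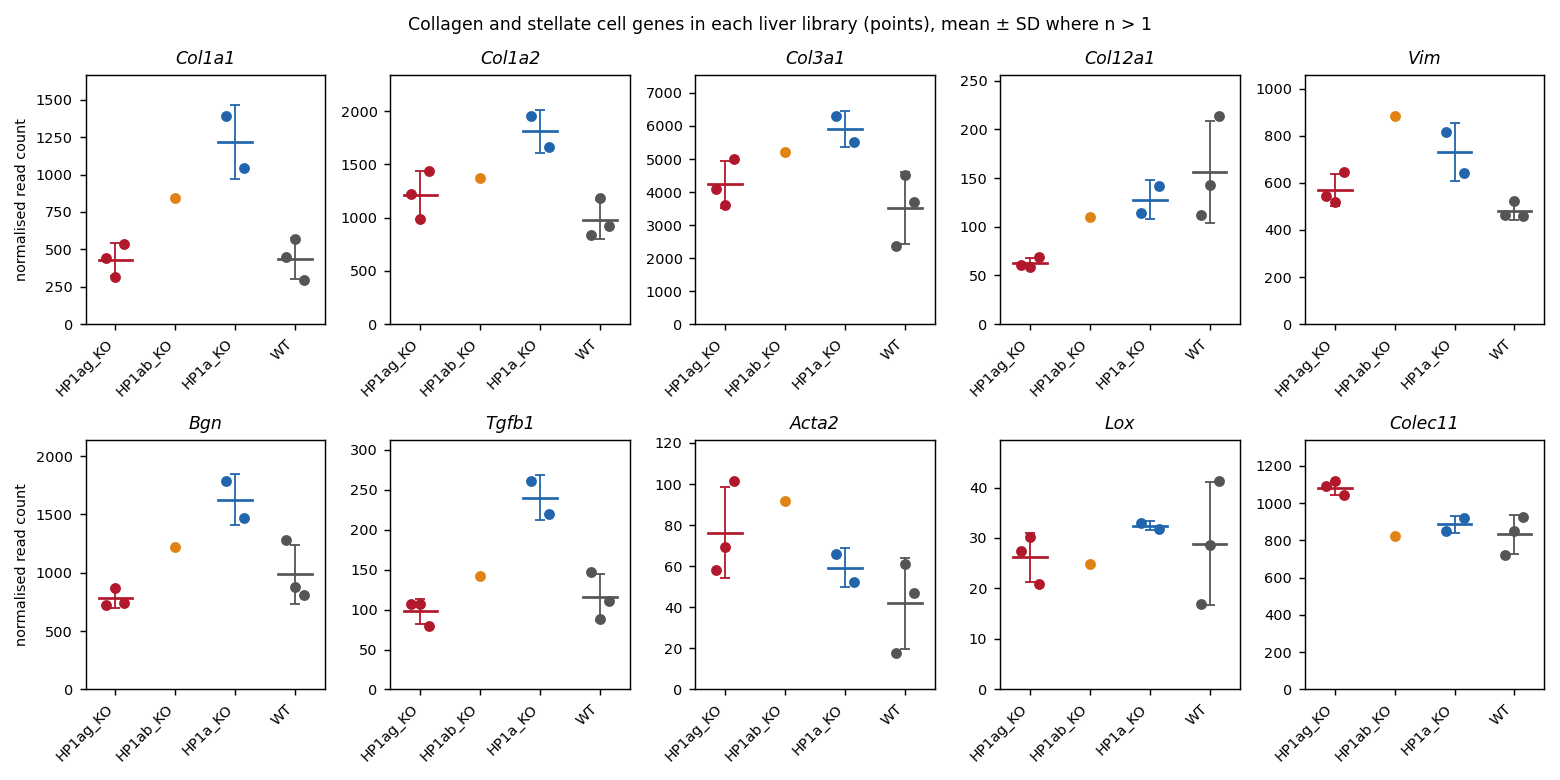
Normalised read counts (vertical axis, from 0, one scale per gene) of the 10 genes in each liver, by genotype. Points are livers, horizontal lines are means and bars are SD where a group has more than 1 liver. In HP1a_KO, Col1a1 (1391 and 1045) stands above all 7 other livers, while Col12a1 is lowest in the 3 HP1ag_KO livers (58.3 to 69.1).

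Col1a1 (chr11:94936224-94953042, plus strand) and Col1a2 (chr6:4504814-4541544, plus strand) encode the chains that wind together in type I collagen, the main fibre of scar tissue. Col1a1 had 440.2, 319 and 537 normalised reads in HP1ag_KO, 843 in HP1ab_KO, 1391 and 1045 in HP1a_KO, and 450.1, 569 and 296 in WT. The HP1ag_KO and WT livers overlapped, and HP1ab_KO lay between WT and HP1a_KO. HP1a_KO averaged 1218 ± 244 and WT 438 ± 137, a log2 difference of 1.51 (SE 0.31), with a limma adjusted p of 0.397 and a DESeq2 adjusted p of 0.00248. The DESeq2 adjusted p was 0.695 without HP1a_KO replicate 1. HP1ag_KO against WT gave a log2 difference of -0.00 (SE 0.27), which became 0.05 when libraries were scaled to equal totals.

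Col1a2 had 1220.3, 989 and 1436 normalised reads in HP1ag_KO, 1372 in HP1ab_KO, 1954 and 1666 in HP1a_KO, and 836, 1187 and 918 in WT. Both HP1a_KO livers stood above every other liver, and the HP1ag_KO and WT ranges overlapped. The log2 difference between HP1a_KO and WT was 0.90 (SE 0.20), with a limma adjusted p of 0.397 and a DESeq2 adjusted p of 0.0195, a call that was lost without HP1a_KO replicate 1, HP1a_KO replicate 2 or WT replicate 3. The ratio of Col1a1 to Col1a2 reads within a liver was 0.361, 0.322 and 0.374 in HP1ag_KO, 0.614 in HP1ab_KO, 0.712 and 0.627 in HP1a_KO, and 0.538, 0.480 and 0.322 in WT. The HP1a_KO livers had the highest ratios of all 9, and the HP1ag_KO livers overlapped WT at its lower end.

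Col3a1 (chr1:45311538-45349706, plus strand) encodes type III collagen, the reticular fibre that accompanies type I. It had 4096, 3601 and 5014 normalised reads in HP1ag_KO, 5217 in HP1ab_KO, 6299 and 5527 in HP1a_KO, and 2356, 4526 and 3693 in WT. The 2 HP1a_KO livers were highest and the HP1ab_KO liver came next. The log2 difference of HP1a_KO against WT was 0.79 (SE 0.26), with a limma adjusted p of 0.457 and a DESeq2 adjusted p of 0.218, so it did not pass either test. The DESeq2 adjusted p was 0.0492 without WT replicate 2, 0.238 without WT replicate 1 and 0.368 without WT replicate 3. The ratio of Col1a2 to Col3a1 stayed close between groups, at 0.286 ± 0.0116 in HP1ag_KO, 0.263 in HP1ab_KO, 0.306 ± 0.00618 in HP1a_KO and 0.288 ± 0.0579 in WT.

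**Figure D2:**
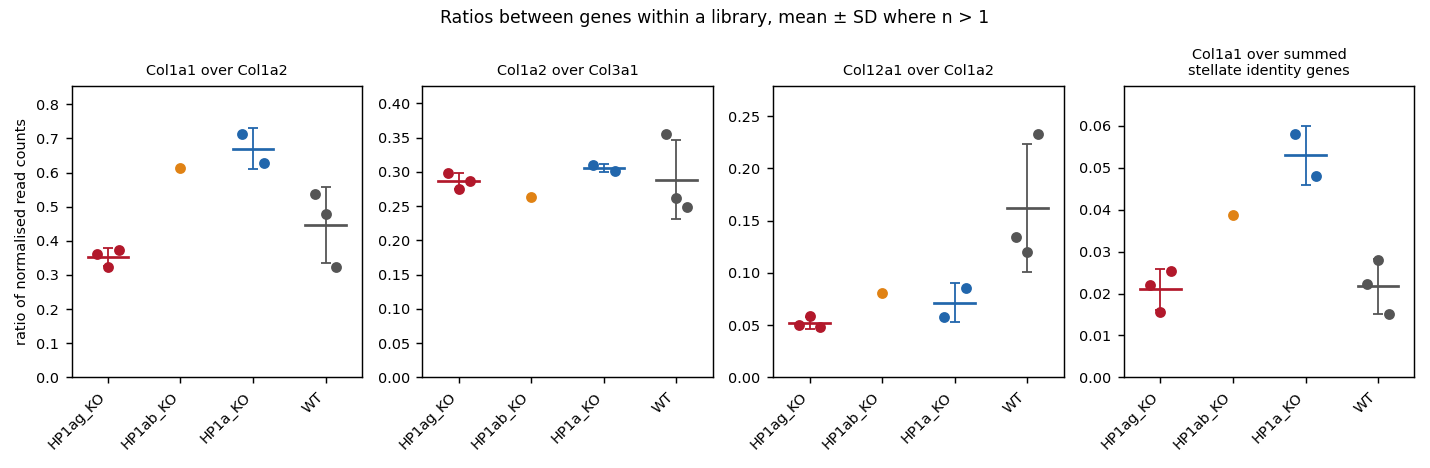
Ratios of normalised read counts between genes within a liver (vertical axis, no unit, from 0), by genotype. Points are livers, lines are means and bars are SD. The Col1a1 to Col1a2 ratio is highest in HP1a_KO (0.712 and 0.627), and the Col12a1 to Col1a2 ratio is highest in WT (0.162 ± 0.0613).

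Col12a1 (chr9:79598991-79718831, minus strand) encodes a collagen that lies along the surface of collagen fibres. It had 61.1, 58.3 and 69.1 normalised reads in HP1ag_KO, 110.3 in HP1ab_KO, 114 and 142 in HP1a_KO, and 112, 143 and 214 in WT. The 3 HP1ag_KO livers were below all 6 other livers, which held for 3.05% of all genes, and below all 3 WT livers, which held for 7.05%. HP1ag_KO averaged 62.8 ± 5.59 and WT 156 ± 52.0, a log2 difference of -1.25 (SE 0.24), with a limma adjusted p of 0.350. DESeq2 called it lower with an adjusted p of 0.00439, 1 of 10 genes against 0.347% of all genes. The DESeq2 adjusted p was 0.0508 without HP1ag_KO replicate 2 and 0.0775 without WT replicate 3, the highest WT liver. In the comparison of HP1ag_KO with HP1a_KO its log2 difference was -1.01 (SE 0.27), with a limma adjusted p of 0.157 and a DESeq2 adjusted p of 0.0576. The Col12a1 to Col1a2 ratio was 0.0524 ± 0.00579 in HP1ag_KO, 0.0804 in HP1ab_KO, 0.0717 ± 0.0191 in HP1a_KO and 0.162 ± 0.0613 in WT, and every mutant liver was below every WT liver. How often ratios of other genes are so placed was not computed. Col12a1 alone overlapped between HP1a_KO (114 and 142) and WT (112, 143 and 214). Col1a2, the divisor, had log2 differences against WT of 0.31 in HP1ag_KO, 0.50 in HP1ab_KO and 0.90 in HP1a_KO.

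Bgn (chrX:73483602-73495933, plus strand) encodes biglycan, a small proteoglycan that binds collagen and TGF-β. It had 727, 874 and 745 normalised reads in HP1ag_KO, 1222 in HP1ab_KO, 1783 and 1471 in HP1a_KO, and 1277, 874 and 812 in WT. The HP1a_KO livers were highest, WT replicate 1 was above the HP1ab_KO liver, and the lower WT livers overlapped HP1ag_KO. HP1a_KO against WT gave a log2 difference of 0.74 (SE 0.20), with a limma adjusted p of 0.426 and a DESeq2 adjusted p of 0.112, and the DESeq2 adjusted p was 0.000126 without WT replicate 1. HP1ag_KO averaged 782 ± 80.0 and HP1a_KO 1627 ± 221, a log2 difference of -1.05 (SE 0.20), with a limma adjusted p of 0.127 and a DESeq2 adjusted p of 0.00102, and 0.232 by DESeq2 without HP1a_KO replicate 1.

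Lox (chr18:52516067-52529867, minus strand) encodes lysyl oxidase, which crosslinks collagen and elastin. It had 27.3, 30.3 and 20.8 normalised reads in HP1ag_KO, 24.8 in HP1ab_KO, 33.0 and 31.8 in HP1a_KO, and 16.9, 28.6 and 41.2 in WT. The WT livers spanned every mutant liver, and log2 differences against WT ran from -0.13 in HP1ab_KO to 0.25 in HP1a_KO. Its lowest library held 18 reads.

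Tgfb1 (chr7:25687002-25705077, plus strand) encodes the TGF-β ligand that drives collagen production in stellate cells. It had 108, 107 and 79.5 normalised reads in HP1ag_KO, 142 in HP1ab_KO, 261 and 220.2 in HP1a_KO, and 147, 88.6 and 110.5 in WT. The HP1a_KO livers were the highest of the 9, and HP1ag_KO overlapped WT. HP1a_KO averaged 240.4 ± 28.5 and WT 115 ± 29.4, a log2 difference of 1.08 (SE 0.25), with a limma adjusted p of 0.397 and a DESeq2 adjusted p of 0.0412. This call was lost without HP1a_KO replicate 1, HP1a_KO replicate 2 or WT replicate 2, and DESeq2 gave no adjusted p without WT replicate 3. Between HP1ag_KO, at 97.9 ± 15.9, and HP1a_KO, the log2 difference was -1.30 (SE 0.25), with a limma adjusted p of 0.127 and a DESeq2 adjusted p of 0.00169. The DESeq2 adjusted p of that difference was 0.256 without HP1a_KO replicate 1 and 0.0679 without HP1a_KO replicate 2.

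Vim (chr2:13573927-13582826, plus strand) encodes vimentin, an intermediate filament of stellate, endothelial and immune cells. It had 545, 519 and 646 normalised reads in HP1ag_KO, 883 in HP1ab_KO, 816 and 643 in HP1a_KO, and 462, 524 and 458 in WT. The HP1ab_KO and HP1a_KO livers were above all WT livers, and HP1ag_KO overlapped WT. HP1ab_KO against WT gave the lowest DESeq2 adjusted p among the 10 genes, 0.0796, with a log2 difference of 0.88 (SE 0.19) and a limma adjusted p of 0.999. HP1a_KO against WT gave a log2 difference of 0.59 (SE 0.15), with a DESeq2 adjusted p of 0.0925.

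Acta2 (chr19:34241090-34255590, minus strand) encodes the smooth muscle actin that marks myofibroblasts and vessel walls. It had 58.3, 69.5 and 101 normalised reads in HP1ag_KO, 91.9 in HP1ab_KO, 66.1 and 52.5 in HP1a_KO, and 17.8, 60.9 and 46.8 in WT. All 3 HP1ag_KO livers were above 2 of the WT livers, and WT replicate 2 lay inside the HP1ag_KO range. HP1ag_KO averaged 76.4 ± 22.3 and WT 41.9 ± 22.0, a log2 difference of 0.98 (SE 0.44) with a limma adjusted p of 0.656. WT replicate 1, at 17.8, was the lowest of all 9 livers, and without it that difference was 0.47. Acta2 was higher in HP1ag_KO than in HP1a_KO by 0.33 (SE 0.49), the opposite sign to Col1a1, and that difference was smaller than its error.

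Colec11 (chr12:28594173-28623377, minus strand) encodes a collectin, a soluble lectin of the complement system. It had 1090.0, 1116 and 1043 normalised reads in HP1ag_KO, 825 in HP1ab_KO, 851 and 919 in HP1a_KO, and 720.4, 850.4 and 923 in WT. The 3 HP1ag_KO livers were above all 6 other livers, which held for 3.18% of all genes, and the 6 others overlapped. HP1ag_KO against WT gave a log2 difference of 0.39 (SE 0.11), with a limma adjusted p of 0.564 and a DESeq2 adjusted p of 0.253, so no test called it. Relative to the summed stellate identity genes, Colec11 stood at 0.0528 ± 0.00312 in HP1ag_KO, 0.0380 in HP1ab_KO, 0.0388 ± 0.00473 in HP1a_KO and 0.0414 ± 0.00571 in WT.

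**Figure D3:**
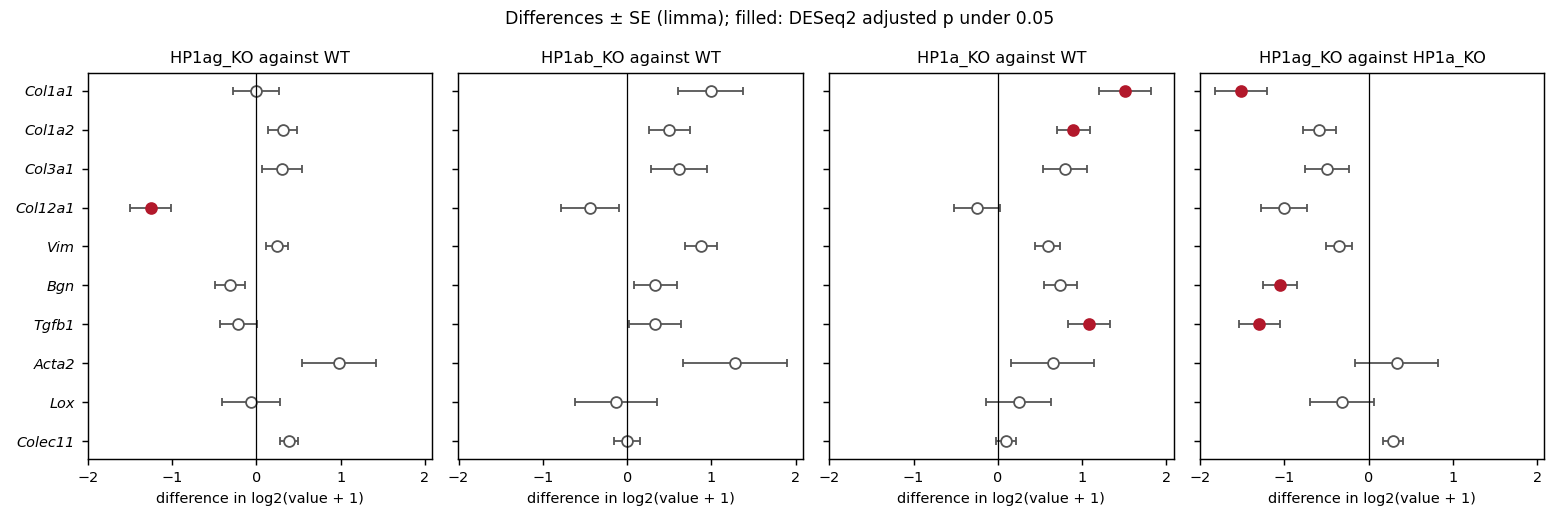
Log2 differences of the 10 genes (horizontal axis, on the log2(value + 1) scale) with SE bars from limma, 1 panel per comparison. Against WT, HP1a_KO lies above 0 for 9 of 10 genes, and HP1ag_KO has Col12a1 at -1.25 and Colec11 at 0.39.

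In HP1ag_KO livers, most of these genes had fewer reads than in HP1a_KO livers. Only Acta2 and Colec11 were higher in HP1ag_KO by mean, 2 of 10 against 48% of all genes. Of the 10 genes, 7 were lower in every HP1ag_KO liver than in either HP1a_KO liver (19.2% of all genes), namely Col1a1, Col1a2, Col3a1, Col12a1, Bgn, Tgfb1 and Lox, and Colec11 was higher in every one (17.5%). limma called 0 of all genes in this comparison, as did edgeR, and at an unadjusted p under 0.05 limma had 6 of the 10 genes lower (8.38% of all genes) and 1 higher (7.8%). DESeq2 called Col1a1, Bgn and Tgfb1 lower, which is 3 of 10 against 1.73% of all genes. Col1a1 had a log2 difference of -1.51 (SE 0.31), with a limma adjusted p of 0.128 and a DESeq2 adjusted p of 0.000629. Without HP1a_KO replicate 1 DESeq2 called none of the 10, and Col1a1, Bgn and Tgfb1 had adjusted p of 0.194, 0.232 and 0.256. Tgfb1 alone of the 3 was also lost without HP1a_KO replicate 2, at 0.0679.

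HP1ag_KO against WT had 5 of the 10 genes higher (47.9% of all genes) and 5 lower, with a median log2 difference of 0.12, where the median of all genes was -0.01. With WT replicate 1 left out the median of the 10 genes came to 0.04, and it was 0.26 or 0.21 when WT replicate 2 or WT replicate 3 was left out and to 0.25 with HP1ag_KO replicate 2 left out. At an unadjusted p under 0.05 limma had 1 of 10 higher (3.84% of all genes) and 1 of 10 lower (3.74%), and after adjustment limma and edgeR called 0 of all genes. Only Colec11 was above every WT liver in all 3 HP1ag_KO livers (6.46% of all genes). HP1ab_KO against WT had 7 of 10 genes higher (49.4% of all genes) with a median of 0.42, and 5 genes (22.6% of all genes) above every WT liver. These were Col1a1, Col1a2, Col3a1, Vim and Acta2, and Col12a1 was below every WT liver (24.8% of all genes). No tool called any of them after adjustment, where DESeq2 called 0.0796% of all genes, and limma had 2 of 10 genes higher at an unadjusted p under 0.05 (2.05% of all genes). With all 6 mutant livers taken as HP1α-null against WT, 9 of 10 genes were higher (48.3% of all genes), with a median of 0.39. limma had 4 of 10 genes higher at an unadjusted p under 0.05 (3.03% of all genes) and 1 lower (2.63%), which was Col12a1 at -0.78. The difference of Acta2 was 0.92, and 0.41 without WT replicate 1. None of the 10 genes passed after adjustment by any tool, where DESeq2 called 0.195% of all genes, and for none of the 10 genes did all mutant livers lie on one side of all WT livers (1.4% of all genes above and 1.74% below).

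Wider lists of collagen, matrix and pathway genes are described by their counts and medians. The median of all genes was between -0.02 and -0.00 in every comparison. In HP1a_KO against WT the 10 genes had a median log2 difference of 0.70. Other collagen genes were higher for 15 of 18 tested, with a median of 0.38, and matrix proteoglycans and glycoproteins for 20 of 23, with a median of 0.39. Genes for collagen processing and crosslinking were higher for 16 of 21, with a median of 0.14, and matrix proteases and inhibitors for 9 of 11, with a median of 0.29. Without HP1a_KO replicate 1 the other collagen genes were still 15 of 18 higher (median 0.36), the proteoglycans and glycoproteins 18 of 23 (0.35), the processing genes 15 of 21 (0.08) and the proteases 9 of 11 (0.22). Without WT replicate 1 the other collagen genes were 13 of 18 higher (median 0.24) and the processing genes 13 of 21 (0.09), and the protease median was 0.50 without HP1a_KO replicate 2. In HP1ag_KO and HP1ab_KO against WT the other collagen genes were higher for 13 of 18 each (medians 0.09 and 0.22). Processing genes were higher for 15 of 21 (0.16) and 18 of 21 (0.09). Proteoglycans and glycoproteins were higher for 16 of 23 (0.19) and 17 of 23 (0.34), and proteases for 6 of 11 and 7 of 11. Without WT replicate 1 the other collagen genes were 8 of 18 higher in HP1ag_KO and 9 of 18 in HP1ab_KO. Col4a1, a basement membrane collagen, had 5074 ± 38.2 in HP1a_KO and 3973 ± 622 in WT, and Dcn, the proteoglycan decorin, had 4092 ± 360 in HP1a_KO and 3839 ± 1101 in WT; neither was called. Fn1, which encodes fibronectin, was called higher by DESeq2 (adjusted p = 0.0112), 1 of 23 against 0.463% of all genes. It stood at 98605 ± 339 in HP1a_KO and 55722 ± 11181 in WT, and the cells that its reads came from were not measured. The DESeq2 adjusted p of Fn1 was 0.695 without HP1a_KO replicate 1, 0.216 without HP1a_KO replicate 2 and 0.0751 without WT replicate 2.

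TGF-β pathway genes other than Tgfb1 were higher in HP1a_KO than in WT for 23 of 26, with a median of 0.25, and for 19 of 26 without HP1a_KO replicate 1, with a median of 0.22. No tool called any of them. HP1ag_KO against HP1a_KO had 21 of 26 lower, with a median of -0.24, and 15 of 26 lower without HP1a_KO replicate 1, with a median of -0.20. DESeq2 called the receptor gene Tgfbr1, at 1177 ± 147 in HP1ag_KO and 1728 ± 166 in HP1a_KO (adjusted p = 0.0166), and Eng, at 1060.4 ± 65.4 in HP1ag_KO and 1686 ± 180 in HP1a_KO (adjusted p = 0.0211). That is 2 of 26, against 1.73% of all genes called lower. In HP1ag_KO against HP1a_KO the matrix proteoglycan and glycoprotein genes were lower for 19 of 23, with a median of -0.29, and the other collagen genes for 13 of 18, with a median of -0.27. Without HP1a_KO replicate 1 these were 16 of 23, with a median of -0.12, and 15 of 18, with a median of -0.31. Fn1 was called lower by DESeq2 in HP1ag_KO (adjusted p = 0.000849), 1 of 23 against 1.73% of all genes, at 52089 ± 6880 in HP1ag_KO and 98605 ± 339 in HP1a_KO. These 3 calls were lost without HP1a_KO replicate 1 (DESeq2 adjusted p 0.119 for Fn1 and 0.570 for the others) and without HP1a_KO replicate 2 (0.0748 for Fn1). Those of Tgfbr1 and Eng were also lost without HP1ag_KO replicate 2 or 3, and that of Eng without HP1ag_KO replicate 1.

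Stellate identity genes were higher in HP1a_KO than in WT for 19 of 20 tested, with a median of 0.18, and for 15 of 20 without HP1a_KO replicate 1, with a median of 0.13. Without WT replicate 1 it was 14 of 20. HP1ag_KO against WT had 13 of 20 higher, with a median of 0.08, but 10 of 20 with a median of -0.0015 without WT replicate 1. Leaving out WT replicate 2 gave 15 of 20 (median 0.12), and leaving out WT replicate 3 gave 14 of 20 (median 0.19). Reln, which marks quiescent and activated stellate cells, had 4389 ± 102 in HP1ag_KO, 4627 in HP1ab_KO, 4720.1 ± 292 in HP1a_KO and 4191 ± 362 in WT. Col1a1 over the summed stellate identity reads was 0.0210 ± 0.00496 in HP1ag_KO, 0.0388 in HP1ab_KO, 0.0530 ± 0.00705 in HP1a_KO and 0.0218 ± 0.00652 in WT. That sum weighs its highest genes most, which are Cxcl12, Steap4 and Reln. It was 21791 to 24002 in HP1a_KO and 19687 to 20303 in WT, without overlap. The number of stellate cells was not measured. Smooth muscle contractile genes were higher in HP1a_KO than in WT for 6 of 9 tested, with a median of 0.19, and their sum was 5707 to 5824 in HP1ag_KO, 6061 in HP1ab_KO, 5787 to 5843 in HP1a_KO and 5574 to 5901 in WT. Mylk, the gene with the highest mean in that sum, had 2808 ± 201 in HP1a_KO and 3191 ± 313 in WT. The smooth muscle median was 0.0027 with 5 of 9 higher without HP1a_KO replicate 1, and -0.10 with 3 of 9 higher without WT replicate 1. Among stellate identity genes DESeq2 called 1 of 20 between HP1ag_KO and HP1a_KO, Sod3 (adjusted p = 0.0458), against 1.73% of all genes called lower. Sod3 had 246 ± 35.8 in HP1ag_KO and 506 ± 80.0 in HP1a_KO. Its call was lost without either HP1a_KO replicate and without HP1ag_KO replicate 2 or 3.

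Markers of other liver cells were read in the same livers. Kupffer cell and macrophage markers were higher in HP1a_KO than in WT for 14 of 14, with a median of 0.55 and 0.43 without HP1a_KO replicate 1. DESeq2 called Cd5l (adjusted p = 0.0463), 1 of 14 against 0.463% of all genes called higher. Their summed level was 17771 to 25126 in HP1ag_KO, 27482 in HP1ab_KO, 23914 to 28545 in HP1a_KO and 16544 to 19293 in WT. HP1ag_KO against HP1a_KO had 13 of 14 lower, with a median of -0.36, and 11 of 14 without HP1a_KO replicate 1, with a median of -0.22. DESeq2 called Cd163 lower there (adjusted p = 0.0205), 1 of 14 against 1.73% of all genes, at 549.8 ± 97.4 in HP1ag_KO and 1100.3 ± 8.54 in HP1a_KO. HP1ab_KO against WT had 13 of 14 higher, with a median of 0.60. HP1ag_KO against WT also had 13 of 14 higher, with a median of 0.21. Without HP1ag_KO replicate 1 that was 8 of 14, with a median of 0.05. Portal fibroblast and mesothelial markers were higher in HP1a_KO than in WT for 7 of 9, with a median of 0.76, and their sum was 351 to 604 in HP1ag_KO, 329 in HP1ab_KO, 476 to 479 in HP1a_KO and 286 to 335 in WT. Against WT, 7 of 9 of these markers were also higher in HP1ag_KO (median 0.34) and 6 of 9 in HP1ab_KO (0.22). The HP1ab_KO median was -0.03 without WT replicate 3. Gli1, Wt1, Pi16 and Clec3b of that list were under the filter. Among sinusoidal endothelial markers 9 of 13 were higher in HP1a_KO than in WT, with a median of 0.13, and their sum was 19551 to 21826 in HP1ag_KO, 22944 in HP1ab_KO, 20709 to 22615 in HP1a_KO and 19615 to 21885 in WT. Without HP1a_KO replicate 1 that count was 6 of 13 with a median of -0.0041, and the median was 0.20 without HP1a_KO replicate 2 and 0.06 without WT replicate 2. DESeq2 called the endothelial genes Cdh5 (adjusted p = 0.00138) and Dnase1l3 (adjusted p = 0.00420) lower in HP1ag_KO than in HP1a_KO, and also the hepatocyte gene Apob (adjusted p = 0.0436). These are 2 of 13 endothelial and 1 of 12 hepatocyte genes, against 1.73% of all genes. Hepatocyte markers were higher in HP1a_KO than in WT for 7 of 12 (median 0.11), cholangiocyte markers for 5 of 6 (median 0.22) and lymphocyte and neutrophil markers for 7 of 8 (median 0.16). These 3 medians moved when 1 library was left out. The hepatocyte median was 0.20 without HP1a_KO replicate 1 and 0.02 without HP1a_KO replicate 2. The cholangiocyte median was -0.03 without HP1a_KO replicate 2 and -0.05 without WT replicate 1, with 3 of 6 higher in each, and the cholangiocyte sum was 799.9 to 1036 in HP1a_KO and 743 to 1748 in WT. The lymphocyte and neutrophil median was 0.43 without HP1a_KO replicate 1, 0.06 without WT replicate 1 and 0.53 without WT replicate 3. In HP1a_KO against WT DESeq2 called the hepatocyte factor gene Hnf4a (adjusted p = 0.0403) and the neutrophil gene S100a8 (adjusted p = 0.00935). S100a8 was at 77.3 ± 20.5 in HP1a_KO and 15.1 ± 2.61 in WT. That is 1 of 12 and 1 of 8 in their lists, against 0.463% of all genes called higher. None of these calls of marker genes held by DESeq2 without HP1a_KO replicate 1 or without HP1a_KO replicate 2, and those of Cd5l, Hnf4a, S100a8, Cd163, Cdh5 and Apob were also lost, or had no adjusted p, without at least 1 other library. None of the 14 Kupffer and macrophage markers or the 13 sinusoidal markers was at 0 in any library, and 2 of the 13 portal fibroblast and mesothelial markers were. The part of these cells in the collagen results was not tested.

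**Figure D4:**
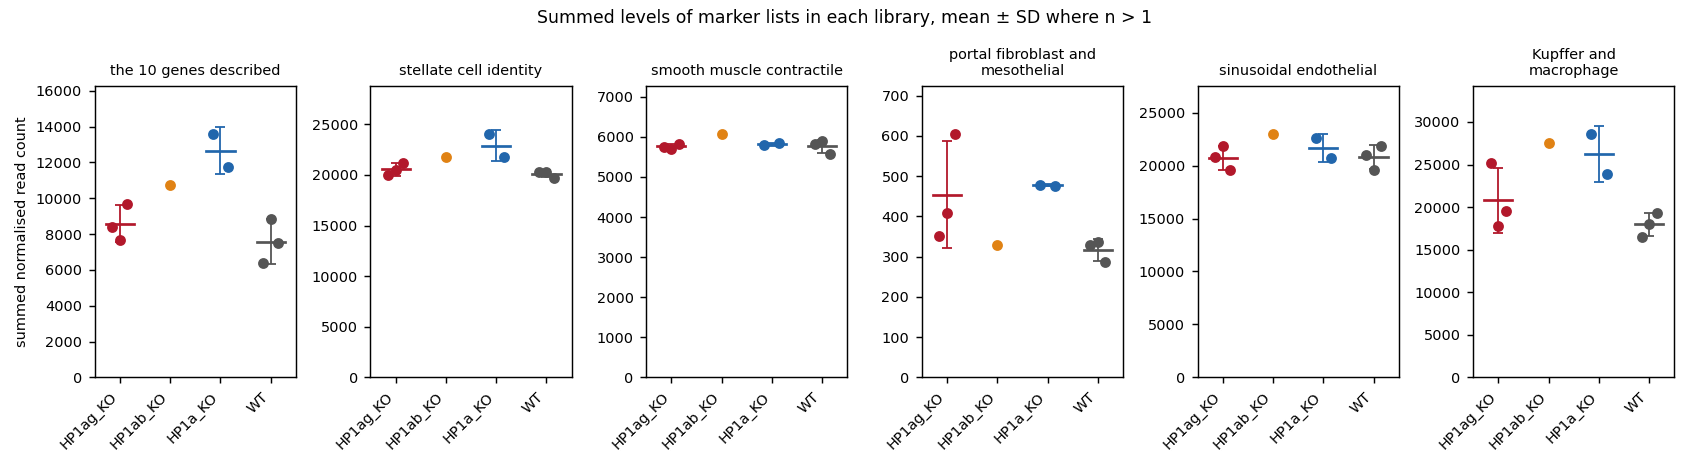
Summed normalised read counts (vertical axis, from 0) of the 10 genes and of marker lists in each liver, by genotype. Points are livers, lines are means and bars are SD. The Kupffer and macrophage sum is 23914 to 28545 in HP1a_KO and 16544 to 19293 in WT. The smooth muscle sum, in which Mylk has the highest mean, is nearly flat.

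Correlations over the 9 livers were computed against 10758 genes for 3 of the 10, as a description. The points share libraries and include the group differences above. Col1a1 was closest to Ldha, which encodes lactate dehydrogenase A, at Pearson r 0.98, and to Sass6 and Cd276, both at 0.97. Ldha stood at 16698 ± 2110 in HP1ag_KO, 25644 in HP1ab_KO, 27173 ± 2155 in HP1a_KO and 16309 ± 1599 in WT. Col12a1 was closest to Tc2n, at 0.97, and to Lrit1 and Tshz1, both at 0.94. Tc2n stood at 113 ± 4.71 in HP1ag_KO, 140 in HP1ab_KO, 184 ± 9.20 in HP1a_KO and 199.5 ± 49.9 in WT. Colec11 was closest to Med23 (0.96), Ecscr (0.95) and Elovl5 (0.94). Without the 2 livers farthest from the median of the gene described, r was between 0.86 and 0.95 for these 9 genes. Spearman's rho over all 9 livers was between 0.85 and 0.97. The 9 genes were picked for the highest r on these same livers, so neither value is an independent check.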

How the data were processed

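Stranded libraries were made from whole-liver RNA depleted of ribosomal RNA, as the labels' protocols state. Tools named in the submitters' processing notes, with no roles given, are HTSeq 0.5.4p3, TopHat2 2.0.10, DESeq2 1.0.19, Bowtie2 2.1.0 and CASAVA 1.8.2, and the build is mm10. The authors deposited a signal for each gene and library: a read count over that library's size factor. Whole reads came back for 100% of values (tolerance 0.1 read). Chi-square per degree of freedom between replicates was 49.0 to 125, more than sampling noise.

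The test was limma 3.58.1 (R 4.3.3, mean trend) on log2(value + 1), which understates the change of low genes, for 13845 genes with a mean of at least 10. All 4 groups entered 1 fit (the HP1α-null comparison had 2 groups), which lends the single HP1ab_KO library the spread of the other groups. P-values were Benjamini-Hochberg adjusted over all genes with 0.05 as threshold. DESeq2 1.42.0 and edgeR 4.0.16 tested the whole reads. The fits were run on simulated counts with known changes and the same spread for every gene. Real genes differ in spread, so that run cannot decide between the tools where their calls differ. Genes named were the 10, for each other list those with the highest means or a call, and 3 genes of most similar pattern for Col1a1, Col12a1 and Colec11. The 10 genes and the lists were chosen with earlier results of these data known. Coordinates are from GENCODE M21 (GRCm38), and exon length is the union of exons. Counting may share reads between overlapping genes, since its strand setting is not given in the sources used here.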

Additional observations from a re-analysis of the deposited data

Results flagged for a closer look

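Bgn lay on opposite sides of the WT mean in the HP1ag_KO and HP1a_KO livers: on the log2 scale every HP1ag_KO liver was below that mean and every HP1a_KO liver above it. The HP1ag_KO livers still overlapped WT, with HP1ag_KO replicate 2 at 874 and WT replicate 3 at 812. HP1ag_KO against WT was -0.31, with a limma adjusted p of 0.716 and a DESeq2 adjusted p of 0.792. The direct difference between HP1ag_KO and HP1a_KO was -1.05 on the log2(value + 1) scale, with a limma adjusted p of 0.127 and a DESeq2 adjusted p of 0.00102, and 0.232 by DESeq2 without HP1a_KO replicate 1.

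Tgfb1 was placed in the same way around the WT mean, and its HP1ag_KO livers also overlapped WT, where replicate 2 had 88.6. HP1ag_KO against WT was -0.22, with a limma adjusted p of 0.836 and a DESeq2 adjusted p of 0.959. The direct difference between HP1ag_KO and HP1a_KO was -1.30, with a limma adjusted p of 0.127 and a DESeq2 adjusted p of 0.00169. The DESeq2 call needed both HP1a_KO livers, and without HP1a_KO replicate 1 the DESeq2 difference was -1.17.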

How the results depend on the processing

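limma called none of the 10 genes under any alternative tried (pseudocounts 0.5 and 5, no filter or a mean of 50, TMM or equal totals, no mean trend, fits of only the groups compared, and each replicate left out), and edgeR called none. DESeq2 called 1 gene for HP1ag_KO against WT, 3 for HP1a_KO against WT and 3 for HP1ag_KO against HP1a_KO. DESeq2 repeated without each replicate, a repeat chosen after seeing the data, gave 0 to 1, 0 to 4 and 0 to 3 calls in those comparisons. Where that leaves 1 HP1a_KO library, it is assumed to vary like the other groups. Some log2 differences changed sign: Col1a1 in HP1ag_KO against WT was 0.0504 with equal totals and 0.24 in livers with neighbouring animal numbers, and -0.26 to 0.21 with 1 replicate left out. Colec11 in HP1ab_KO against WT was 0.0063 with TMM, 0.0048 with equal totals and 0.0050 with edgeR, and -0.10 to 0.0765 with 1 replicate left out. Lox in HP1α-null against WT was -0.0534 with DESeq2 and -0.0370 with edgeR. With 1 replicate left out, Lox ran from -0.30 to 0.32 there, from -0.40 to 0.22 in HP1ag_KO, from -0.45 to 0.16 in HP1ab_KO and from -0.0799 to 0.54 in HP1a_KO against WT, while in HP1a_KO against WT Col12a1 ran from -0.46 to 0.0061 and Colec11 from -0.0028 to 0.18. The cause was not tested. The labels give no replicate numbers. For HP1ag_KO against WT a fit of the 4 livers with neighbouring animal numbers, with the pair as a term, called none of the 10 genes and gave Col12a1 -1.41; the labels do not say that such livers are related. Lox and Acta2 had as few as 18 and 20 reads in a library, which limits their precision.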
